A study of Mus musculus with 6 samples.

Results

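The 10 leukocyte integrin subunit genes examined here were Itga4, Itga5, Itga6, Itgal, Itgam, Itgav, Itgb1, Itgb2, Itgb3 and Itgb7. They were chosen by name, as α and β subunits that blood cells use for adhesion, and were taken from the 36083 genes of the deposited expression table. All 10 were found there by gene identifier. The cells were lineage-negative (Lin-) spleen cells of mouse blast crisis chronic myeloid leukemia (bcCML), an undifferentiated myeloid leukemia. Both groups started from KLS cells, an immature progenitor fraction of bone marrow, of donors on a B6 background. Both carried the BCR-ABL and NUP98-HOXA9 oncogenes, delivered by retroviral vectors, and were transplanted into mice. The labels name NSG recipients, which lack lymphocytes of their own, whereas the study's general methods name B6.SJL mice for primary transplants. The recipient strain is therefore not settled here. The study's gate for primary bcCML took cells positive for the marker of each vector before the Lin- step. The donors were either wild type (WT, 3 libraries) or Sdc1-/- (labelled Sdc1 KO, 3 libraries). In the Sdc1-/- mice the part of the gene that encodes the signal peptide is disrupted in the germline, so the donor cells carried the allele before transformation. Labels give no age, and do not state whether the libraries of a group came from separate mice. A legend in the study describes RNA-seq of such WT cells as technical replicates. The SDs, p-values and calls below therefore measure the spread between libraries and need not hold any difference between mice.

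Integrins are cell surface receptors made of 1 α and 1 β subunit, and a subunit reaches the surface only as part of such a pair. β2 pairs with αL (Itgal) to form LFA-1 and with αM (Itgam) to form Mac-1, which bind ICAMs and complement and serve leukocyte arrest and uptake of particles. α4 pairs with β1 to bind VCAM-1 and with β7 to bind MAdCAM-1. α5β1 is a fibronectin receptor, α6β1 a laminin receptor, and αv and αIIb pair with β3 to bind matrix and plasma proteins. Syndecan-1, the product of Sdc1, is a cell surface proteoglycan that can act together with integrins at sites of adhesion. The values are in TPM, a level per transcript length that can be compared between genes, which the authors rescaled between libraries. They describe mRNA and not surface receptors.

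Sdc1 itself was read first, as the targeted gene. Its level was 1.75, 1.21 and 1.51 in the WT-labelled libraries and 3.85, 3.8 and 4.12 in the Sdc1 KO-labelled libraries. The gene was low in both groups and 2.63-fold higher where the label says Sdc1 KO (log2 fold change 0.99, SE 0.093, adjusted p = 1.2e-04, limma). This goes against a label read as loss of the transcript, and groups are therefore named by their labels throughout. The study describes the allele as one that keeps mature protein from the cell surface. An mRNA level alone therefore cannot decide whether the labels are right. The Y-linked genes Ddx3y, Eif2s3y, Kdm5d and Uty summed to between 0.276 and 0.308 in the WT-labelled libraries and to between 68.1 and 78.4 in the Sdc1 KO-labelled libraries. The sex of the cells and the genotype cannot be told apart in this design. Library sums were 1048875 to 1058263 in the WT-labelled libraries and 944973 to 951814 in the Sdc1 KO-labelled libraries. Correlations of log2 values between libraries were 0.9929 to 0.996 within groups and 0.9682 to 0.9716 between them. Read depth is unknown.

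Of the 10 integrin genes, 6 were lower in the Sdc1 KO-labelled libraries (Itgam, Itgb7, Itgb2, Itgb3, Itgav and Itgb1), 2 were higher (Itga5 and Itga6), and 2 did not pass the test (Itga4 and Itgal). A gene was called when the adjusted p of limma across all 12155 genes with a mean of at least 1 lay below 0.05, and all 10 integrin genes passed that minimum. Of those 12155 genes, 31.3% were called lower and 29.3% higher, so a called gene was common in this comparison. The median log2 fold change of the 10 was -0.20, against -0.0097 over all genes tested. With every library scaled to a sum of 1000000 the median of all genes moved to 0.12, and 4 integrin genes were lower and 4 higher. Under that scaling 2367 genes were called lower and 5290 higher, against 3810 and 3564 with the deposited scaling. For 8 of the 10 the groups did not overlap, where 66.7% of all genes tested did not.

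**Figure D1:**
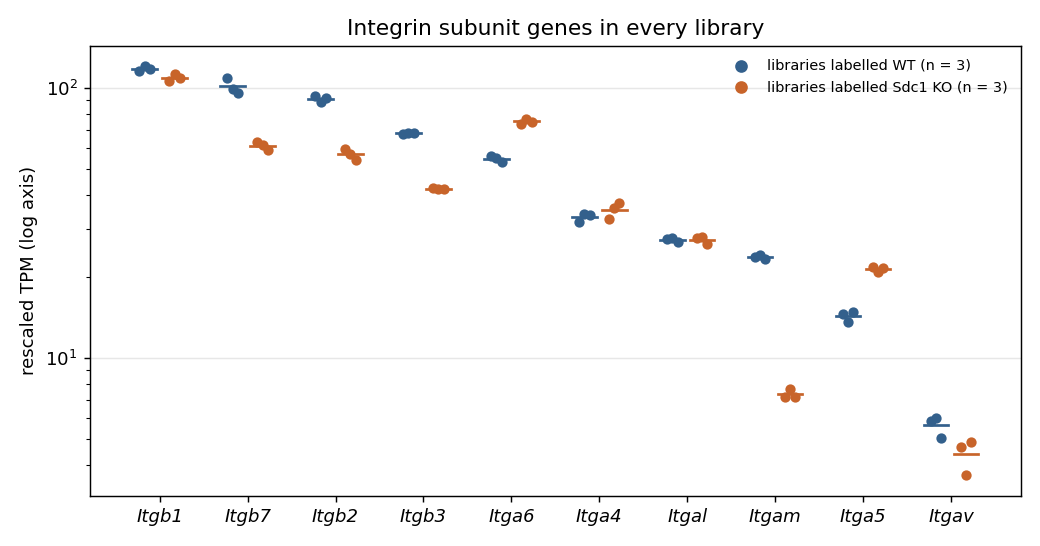
Level of the 10 integrin subunit genes in rescaled TPM (vertical log axis) in the 3 libraries labelled WT (blue) and the 3 labelled Sdc1 KO (orange), 1 point per library with a line at the group mean. The groups are separate for all genes but Itga4 and Itgal, and Itgam shows the widest gap, from a mean of 23.6 to a mean of 7.33.

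Itgam encodes αM (CD11b), the myeloid partner of β2. Its level was 23.6, 24 and 23.3 in the WT-labelled libraries and 7.14, 7.69 and 7.15 in the Sdc1 KO-labelled ones. Every Sdc1 KO-labelled library was low, with no overlap between groups. The mean fell 3.22-fold, from 23.6 ± 0.328 to 7.33 ± 0.318 (SD, n = 3), the largest change among the 10 (log2 fold change -1.56, SE 0.044, adjusted p = 9.7e-07, limma). Of all genes tested, 0.798% had a lower log2 fold change. An antibody to CD11b was among those that defined lineage-positive cells in the study's sort, so cells with much CD11b on their surface had been removed from both groups. The gene is on chromosome 7 (128062640 to 128118491, plus strand, GRCm38). The gene model Gm49368 overlaps it on the same strand, and 68.1% of the 31-base words (stretches of a length by which kallisto can assign reads) of the annotated Itgam transcripts occur in other genes, chiefly this one. How reads were split between them is therefore uncertain. The level of Gm49368 was between 0.348 and 0.672 in all libraries. With it added to Itgam, a setting added once the values had been seen, the fall was 3.09-fold.

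Itgb2, the β subunit common to LFA-1 and Mac-1, was the other β2 integrin gene among the 10 that was called lower. Its level was 93.4, 88.4 and 91.4 in the WT-labelled libraries and 59.5, 57.1 and 54 in the Sdc1 KO-labelled ones. All 3 of the latter lay below all 3 of the former. The mean went from 91.1 ± 2.5 to 56.9 ± 2.76 (SD, n = 3), a log2 fold change of -0.67 (SE 0.044, adjusted p = 2.1e-05, limma). Itgal, which encodes αL, stood at 27.5, 27.8 and 26.8 in the WT-labelled libraries and at 27.8, 28.1 and 26.4 in the Sdc1 KO-labelled ones. The groups overlapped, and the log2 fold change of 0.005 had a 95% interval from -0.086 to 0.10 (adjusted p = 0.92, limma). With a sum of 1000000 per library it was called higher, at 0.15 (adjusted p = 0.0099), which is 0.025 above the median of all genes under that scaling. Itgb2 is on chromosome 10 (77530252 to 77565708, plus strand). Itgal is on chromosome 7 (127296260 to 127335138, plus strand), 0.728 Mb from Itgam, so the neighbouring αL and αM genes had unlike values.

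Read as pairs, the αM to β2 ratio was lower and the αL to β2 ratio higher in the Sdc1 KO-labelled libraries. Itgam was at 0.253, 0.271 and 0.255 of the level of Itgb2 in the WT-labelled libraries and at 0.12, 0.135 and 0.132 in the Sdc1 KO-labelled ones. Itgal was at 0.294, 0.314 and 0.293 and at 0.467, 0.493 and 0.489 of that level. On the log2 scale the Itgam/Itgb2 ratio changed by -0.89 (SE 0.058) and the Itgal/Itgb2 ratio by 0.68 (SE 0.04), with no overlap between groups for either. Among the transcripts of these α subunits, Itgal made up 53.7% ± 0.143 in the WT-labelled libraries and 78.9% ± 0.56 in the Sdc1 KO-labelled ones (SD, n = 3). The sum of αL, αM, αX (Itgax) and αD (Itgad) went from 51.9 ± 0.872 to 35.2 ± 1.01 (SD, n = 3). Set against Itgb2, that sum was 0.57 ± 0.0234 and 0.619 ± 0.0234, and the groups overlapped (exact two-sided permutation p = 0.2, adjusted p = 0.2 over 4 β subunits). On the log2 scale this ratio differed by 0.12 (SE 0.046).

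Markers of maturing myeloid cells were lower in the same libraries as Itgam and Itgb2. All 10 neutrophil markers were called lower, with a median log2 fold change of -1.66, and their summed level was 12670 to 13620 in the WT-labelled libraries and 4591 to 4734 in the Sdc1 KO-labelled ones. The largest falls among them were those of Mmp9 (log2 fold change -1.92) and Retnlg (-1.74), and S100a8 had the highest mean. Of 7 monocyte and macrophage markers tested, 6 were called lower and 1, Cx3cr1, higher, with sums of 566 to 587 and of 253 to 263. Mast cell and basophil markers summed to 278 to 294 and to 102 to 109. Of 8 progenitor markers, 5 were called higher and 2 lower, Flt3 (log2 fold change -0.70, adjusted p = 3.2e-05, limma) and Cd34 (-0.24, adjusted p = 0.0019), and their sums were 425 to 447 and 482 to 489. Beside these counts, 31.3% of all genes tested were called lower and 29.3% higher. The part of these cell types in the integrin values was not tested. In bulk RNA, fewer cells of a type and less RNA per cell cannot be told apart.

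Itgb7 encodes β7, the integrin subunit that the study followed with blocking antibodies and knockdown. Its level was 109, 99.3 and 95.5 in the WT-labelled libraries and 62.9, 61.4 and 58.8 in the Sdc1 KO-labelled ones. The lowest WT value lay well above the highest Sdc1 KO value. The mean fell 1.66-fold, from 101 ± 6.96 to 61 ± 2.05 (SD, n = 3), a log2 fold change of -0.72 (SE 0.054, adjusted p = 4.2e-05, limma). The gene is on the minus strand of chromosome 15 (102215995 to 102231944), and none of its 31-base words occurs in another annotated gene. The table gives 1 value per gene, and a measurement by PCR reads only a stretch of the transcript. The primers that the study used for this gene, printed here because they show which part of the mRNA that assay sees, match exons 12 and 14 of the 15-exon, 2683-nt transcript and span 342 bases:
Itgb7 forward primer: tgggcacggatactgcaaat
Itgb7 reverse primer: agtatgatggcacgggtgtg

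Itga4 encodes α4, the partner that β7 and β1 share. Its level was 31.8, 34.2 and 33.8 in the WT-labelled libraries and 32.8, 35.9 and 37.4 in the Sdc1 KO-labelled ones. The groups overlapped, with a log2 fold change of 0.084 (95% interval -0.048 to 0.22, adjusted p = 0.23, limma). With a sum of 1000000 per library it was called higher, at 0.23 (adjusted p = 0.012), which is 0.11 above the median of all genes under that scaling. Without Sdc1 KO replicate 1 it was 0.14 (adjusted p = 0.05, just inside the threshold), and without WT replicate 1 or Sdc1 KO replicate 3 it was 0.053 or 0.044. The α4 to β7 ratio was 0.292, 0.344 and 0.354 in the WT-labelled libraries and 0.522, 0.585 and 0.636 in the Sdc1 KO-labelled ones. It was higher by 0.80 on the log2 scale (SE 0.12), the largest positive difference of the 8 pair ratios. The α4 to β1 ratio was 0.284 ± 0.00602 and 0.325 ± 0.0173 (SD, n = 3), a log2 difference of 0.19. Itgb1 was 1.16-fold ± 0.0938 above Itgb7 in the WT-labelled libraries and 1.79-fold ± 0.0881 above it in the Sdc1 KO-labelled ones (SD, n = 3), so the balance of the β chains that can take α4 differed between the groups. αE (Itgae), the other partner of β7, was below 1 in all libraries. Itga4 is on chromosome 2 (79255426 to 79333123, plus strand).

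Itgb1, the β subunit with the most α partners, had the highest level of the 10 and changed little. Its level was 115, 120 and 117 in the WT-labelled libraries and 106, 112 and 109 in the Sdc1 KO-labelled ones. These ranges did not overlap but lay close together (117 ± 2.45 against 109 ± 2.87, SD, n = 3). The log2 fold change was -0.11 (SE 0.033, adjusted p = 0.028, limma). The call did not hold when WT replicate 2 or 3 or Sdc1 KO replicate 1 or 3 was left out (adjusted p = 0.065 to 0.079). With a sum of 1000000 per library the value was 0.042, the opposite direction, and with quantile normalization it was -0.0056 (adjusted p = 0.89). Itgb1 is on chromosome 8 (128685654 to 128733200, plus strand).

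The α5 and α6 genes, which encode the fibronectin and laminin receptor chains, were the members that rose. Itga5 stood at 14.5, 13.6 and 14.8 in the WT-labelled libraries and at 21.7, 20.8 and 21.5 in the Sdc1 KO-labelled ones. All the latter were high, and the mean rose 1.49-fold, from 14.3 ± 0.61 to 21.3 ± 0.505 (SD, n = 3, log2 fold change 0.55, SE 0.044, adjusted p = 5.8e-05, limma). Itga6 stood at 55.9, 55.1 and 53.1 in the WT-labelled libraries and at 73.7, 76.8 and 74.6 in the Sdc1 KO-labelled ones. The groups did not overlap, and the mean rose 1.37-fold, from 54.7 ± 1.46 to 75 ± 1.56 (SD, n = 3, log2 fold change 0.45, SE 0.034, adjusted p = 4.3e-05, limma). Itga6 shares 6.15% of its 31-base words with other genes. Itga6 is on chromosome 2 (71745616 to 71858416, plus strand) and Itga5 on chromosome 15 (103344286 to 103366763, minus strand). The gap between Itga5 and Itgb7 is 1.11 Mb, and their mRNAs moved in opposite directions.

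**Figure D2:**
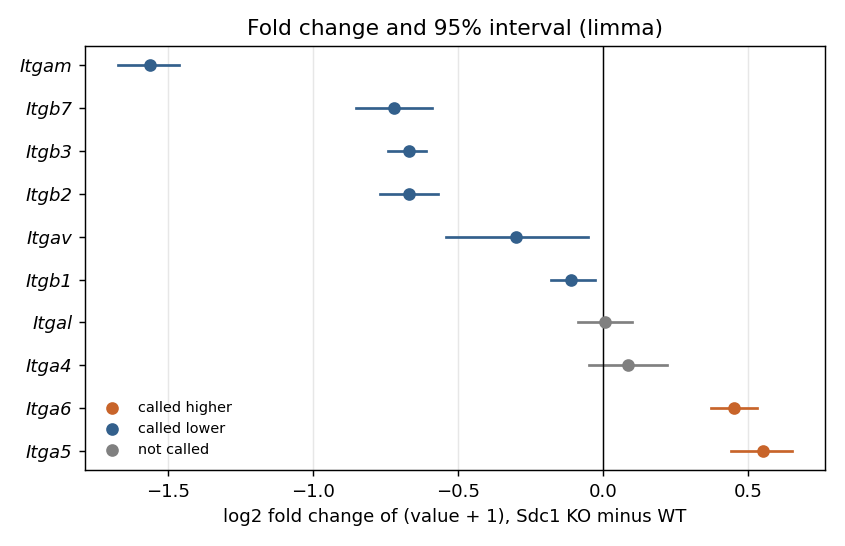
Log2 fold change of value + 1, Sdc1 KO minus WT (horizontal axis), for the 10 integrin genes (vertical axis), with 95% intervals from limma over 3 libraries per group. Itgam has the most negative value, -1.56, the intervals of Itgal and Itga4 include 0, and those of Itgav and Itgb1 end near it.

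Against β1, both α5 and α6 stood higher in the Sdc1 KO-labelled libraries. The α5 to β1 ratio was 0.126, 0.114 and 0.126 in the WT-labelled libraries and 0.205, 0.186 and 0.198 in the Sdc1 KO-labelled ones, a log2 difference of 0.65 (SE 0.062). The α6 to β1 ratio was 0.487, 0.46 and 0.454 and then 0.696, 0.687 and 0.685, a log2 difference of 0.55 (SE 0.032). Neither ratio overlapped between groups. The sum of the α chains that can pair with β1 was 111 ± 1.32 in the WT-labelled libraries and 138 ± 2.96 in the Sdc1 KO-labelled ones (SD, n = 3). It stood at 0.946 ± 0.0225 and 1.26 ± 0.0222 of the level of Itgb1, below 1 in every WT-labelled library and above 1 in every Sdc1 KO-labelled library. Within the 4 such α members (Itga4, Itga5, Itga6 and Itgav), Itga6 took 50.7% ± 1 and 55.1% ± 1.09, Itga5 13.2% ± 0.689 and 15.7% ± 0.602, and Itga4 30.8% ± 1.21 and 26% ± 1.19 (SD, n = 3).

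Itgb3 and Itgav encode the chains of αvβ3. Itgb3 stood at 67.6, 68.1 and 67.8 in the WT-labelled libraries and at 42.4, 42.1 and 42.2 in the Sdc1 KO-labelled ones. This was the tightest pair of groups among the 10, with means of 67.8 ± 0.274 and 42.2 ± 0.152 (SD, n = 3, log2 fold change -0.67, SE 0.027, adjusted p = 3.4e-06, limma). Itgav was the lowest of the 10, at 5.85, 6 and 5.05 in the WT-labelled libraries and at 4.7, 3.68 and 4.88 in the Sdc1 KO-labelled ones. The gap between the groups was small beside the spread within them. Its log2 fold change of -0.30 (SE 0.1, adjusted p = 0.042, limma) lost the call without replicate 1 or 2 of either label (adjusted p = 0.053 to 0.12) and with no filter on low values (adjusted p = 0.11). Itgb3 is on chromosome 11 (104608000 to 104670476, plus strand) and Itgav on chromosome 2 (83724397 to 83806916, plus strand).

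Of the α genes whose products can pair with β3, Itgav was not the one with the higher mRNA level. Itga2b, which encodes the platelet and progenitor chain αIIb, stood at 179, 170 and 187 in the WT-labelled libraries and at 159, 145 and 142 in the Sdc1 KO-labelled ones (log2 fold change -0.26, SE 0.054, adjusted p = 0.0046, limma). Its level was above that of every one of the 10 members in every library. The αv to β3 ratio was 0.083 ± 0.00743 and 0.105 ± 0.0151 (SD, n = 3), a log2 difference of 0.37. The groups were separate on the log2(value + 1) scale but touched as plain ratios, with 0.0873 in one Sdc1 KO-labelled library and 0.088 in one WT-labelled library. The sum of Itgav and Itga2b was 2.72 ± 0.125 times Itgb3 in the WT-labelled libraries and 3.62 ± 0.204 times Itgb3 in the Sdc1 KO-labelled ones, without overlap. The αv to β1 ratio was 0.0481 ± 0.00429 and 0.0407 ± 0.00672, and the groups overlapped. Of 6 megakaryocyte and platelet markers tested, 4 were called lower (Gp1bb, Ppbp, Gp9 and Gp1ba) and 2, Vwf and Pf4, higher. Over all genes tested the shares were 31.3% lower and 29.3% higher. The summed level of these markers, chiefly from Pf4, was 339 to 351 in the WT-labelled libraries and 362 to 392 in the Sdc1 KO-labelled ones. Their part in the β3 values was not tested.

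**Figure D3:**
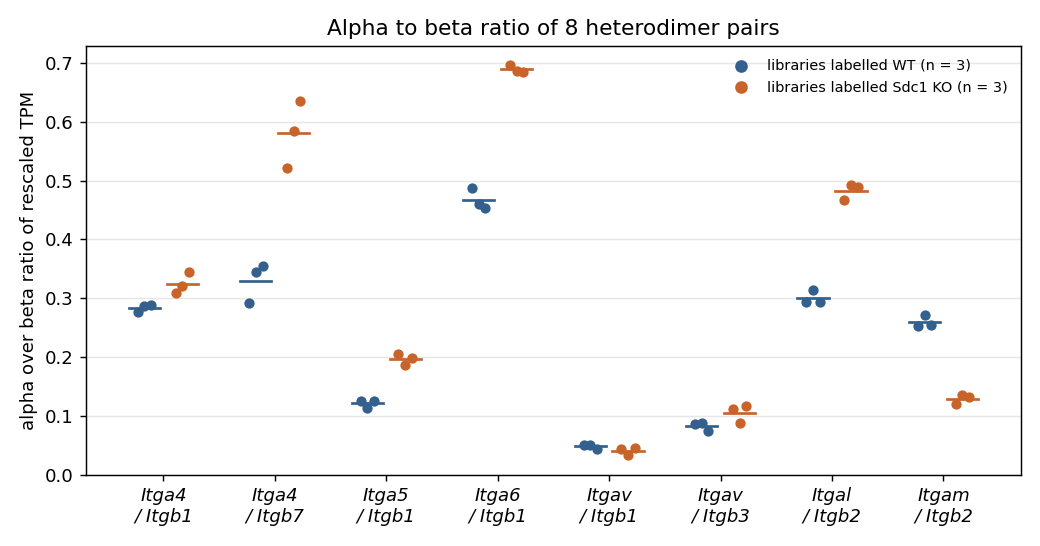
Level of the α gene divided by that of the β gene (vertical axis, ratio of rescaled TPM) for 8 pairs, 1 point per library with a line at the group mean, WT in blue and Sdc1 KO in orange. The mean lies higher in the Sdc1 KO-labelled libraries for 6 of the 8 ratios and lower for Itgam/Itgb2 and Itgav/Itgb1. The points overlap for Itgav/Itgb1 and Itgav/Itgb3.

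Of the 8 pair ratios, 7 did not overlap between groups on the log2(value + 1) scale. Among single genes tested, 66.7% did not overlap, and no such share was taken over ratios of other genes. For the 7 ratios the exact two-sided permutation p was 0.1, the smallest that 3 against 3 libraries can give. Adjusted over the 8 pairs it was 0.114, so no pair ratio could pass 0.05 in this design. The ratios of summed α partners to Itgb1, Itgb3 and Itgb7 had an exact permutation p of 0.1 as well. Adjusted over 4 β subunits that was 0.133, so these sums could not pass either. For Itgav/Itgb1 the exact permutation p was 0.3. Ratios are free of the scaling between libraries apart from the pseudocount, and the mean difference was positive for Itga4/Itgb1, Itga4/Itgb7, Itga5/Itgb1, Itga6/Itgb1, Itgav/Itgb3 and Itgal/Itgb2. The exceptions, both negative, were Itgam/Itgb2 (-0.89) and Itgav/Itgb1 (-0.19). Pairs that share a chain are not independent.

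**Figure D4:**
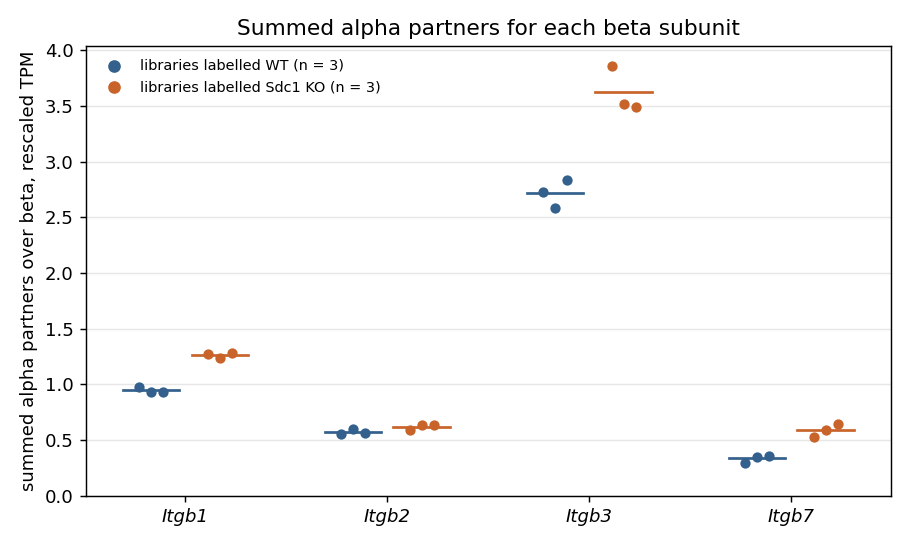
Sum of the α partners of each β subunit divided by that β subunit (vertical axis, ratio of rescaled TPM) in each library, with a line at the group mean, WT in blue and Sdc1 KO in orange. The ratio of Itgb7 goes from a mean of 0.335 to 0.585 and those of Itgb1 and Itgb3 are higher as well, while the groups overlap for Itgb2.

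The summed level of the 4 β genes was 377 ± 6.76 in the WT-labelled libraries and 269 ± 4.49 in the Sdc1 KO-labelled ones (SD, n = 3). The summed level of the 6 α genes was 159 ± 1.91 and 171 ± 2.69. Itgb1 made up 31.1% ± 1.08 of the β sum in the WT-labelled libraries and 40.5% ± 1.17 in the Sdc1 KO-labelled ones. In the WT-labelled libraries the order of levels was Itgb1, Itgb7, Itgb2, Itgb3, Itga6, Itga4, Itgal, Itgam, Itga5 and Itgav, and no neighbours in that order overlapped. In the Sdc1 KO-labelled libraries Itga6 moved from rank 5 to rank 2, and Itga5 and Itgam changed places. Itgb7 and Itgb2, at ranks 3 and 4 there, overlapped in their ranges. Itgb2, Itgb3 and Itgb7 each lost close to the same proportion, with percent changes of -37.5, -37.7 and -39.7, against -7.09 for Itgb1.

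Promoter sequence was available in RefSeq (GRCm38.p6) for 6 of the 10 genes, Itga4, Itga5, Itgam, Itgav, Itgb1 and Itgb7. Itga6, Itgal, Itgb2 and Itgb3 were not in the table used. The windows ran from 250 bases before to 50 after the start. They were searched on both strands for GAGGAA, a core that Ets family factors such as PU.1 can bind, and for GGGCGG, a box bound by Sp1. GAGGAA occurred in the windows of Itga5, Itgam, Itgav, Itgb1 and Itgb7 and GGGCGG in those of Itga4, Itga5, Itgam, Itgav and Itgb1. They occurred in 28.3% and 35.7% of all 32851 windows. No match of one overlapped a match of the other. In Itgam, GAGGAA began at -84, -15 and 33 from the start, and in Itga5 at -127. A match is a run of letters and not a bound site. The 250 bases before the start are shown for the genes with the largest fall and the largest rise, and 30 bases around the start for Itgb7, 5′ to 3′ on the strand of the gene with GAGGAA or its reverse complement in capitals:
Itgam, chr7:128062390-128062639, plus strand: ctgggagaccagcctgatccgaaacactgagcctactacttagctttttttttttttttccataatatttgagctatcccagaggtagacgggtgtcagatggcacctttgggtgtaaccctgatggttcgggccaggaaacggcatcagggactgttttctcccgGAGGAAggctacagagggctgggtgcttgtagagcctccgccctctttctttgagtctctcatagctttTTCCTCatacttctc
Itga5, chr15:103366792-103367041, minus strand: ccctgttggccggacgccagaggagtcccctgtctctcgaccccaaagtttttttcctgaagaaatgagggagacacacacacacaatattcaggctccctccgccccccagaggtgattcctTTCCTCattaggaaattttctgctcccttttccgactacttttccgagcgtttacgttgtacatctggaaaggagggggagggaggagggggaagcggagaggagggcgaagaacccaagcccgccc
Itgb7, chr15:102231918-102231947, minus strand: ccagggtgtgtcacTTCCTCctctgctgcc

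Outside the 10, 17 further integrin subunit genes were in the table. Of these, 4 reached the minimum mean and 3 were called lower, beside 31.3% lower and 29.3% higher over all genes tested. Itga9, whose product α9 pairs with β1, went from 2.15 ± 0.399 to 0.691 ± 0.133 (SD, n = 3, log2 fold change -0.89, adjusted p = 5.1e-04, limma). Itgb2l, a β2-like gene, went from 10.8 ± 1.61 to 4.51 ± 0.423 (log2 fold change -1.09, adjusted p = 1.3e-04). Itgb5, whose product pairs with αv, was low and variable, at 0.93, 0.927 and 1.5 and then 2.05, 0.998 and 1.04 (adjusted p = 0.55). Itga2b, given above, was the other gene called lower.

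Among 25 genes for intracellular activators and adaptors of integrins, 22 were tested, 12 were called lower and 3 higher, beside 31.3% lower and 29.3% higher over all genes tested, and the median was -0.15 (log2 fold change). With every library scaled to a sum of 1000000, 6 were called lower and 7 higher, beside 2367 lower and 5290 higher of 12150 genes. The largest falls were those of Skap1, an adaptor best known from T cells (-0.63, adjusted p = 6.1e-04, limma), and Rassf5, which links active Rap1 to αL (-0.56, adjusted p = 1.0e-05). Rassf5 went from 39.2 ± 0.201 to 26.3 ± 0.319 (SD, n = 3). The largest rises were those of Ptk2, the focal adhesion kinase (0.57, adjusted p = 0.005), and Sharpin, which holds integrins inactive (0.33, adjusted p = 3.2e-04). Rap1a, the small GTPase upstream of talin recruitment, fell from 234 ± 9.41 to 169 ± 8.14 (SD, n = 3, log2 fold change -0.47, adjusted p = 1.6e-04). Fermt3, the kindlin of blood cells and the gene with the highest mean of the list over the 6 libraries, though below Rap1a in the WT-labelled ones, stood at 212 ± 8.71 and 204 ± 5.97 and was not called (adjusted p = 0.24). Talin 1 (Tln1) stood at 73.4 ± 6.74 and 82.6 ± 2.34 (adjusted p = 0.057). Rap1a and Tln1 were named after their values were seen.

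Of 27 ligand genes, 17 were tested, 8 were called lower and 5 higher, and the median was -0.038 (log2 fold change). Over all genes tested, 31.3% were called lower and 29.3% higher, and the share of ligands called higher was close to the latter. Cdh1, the E-cadherin bound by αEβ7, fell by 1.43 on the log2 scale (7.28 ± 0.394 to 2.06 ± 0.0276, SD, n = 3, adjusted p = 3.3e-06, limma). Spp1, the osteopontin bound by αv and α4 integrins, had a log2 fold change of -1.33 (adjusted p = 4.5e-06). Lama5, a laminin chain bound by α6 integrins, rose from 8.39 ± 1.49 to 19.5 ± 0.643 (log2 fold change 1.14, adjusted p = 1.4e-04). Icam2, a ligand of LFA-1, rose from 59.2 ± 2.95 to 93.1 ± 2.09 (log2 fold change 0.64, adjusted p = 2.5e-05). Cd47, an integrin-associated protein with the highest mean of the list, went from 442 ± 11.8 to 298 ± 8.88 (log2 fold change -0.57, adjusted p = 1.7e-05). Among the ligands of α4, Vcam1 stood at 3.87 ± 0.415 and 3.8 ± 0.299 and was not called (adjusted p = 0.86). Madcam1 was at 0 in 5 of the 6 libraries. Vcam1 and Madcam1 were named after their values were seen.

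**Figure D5:**
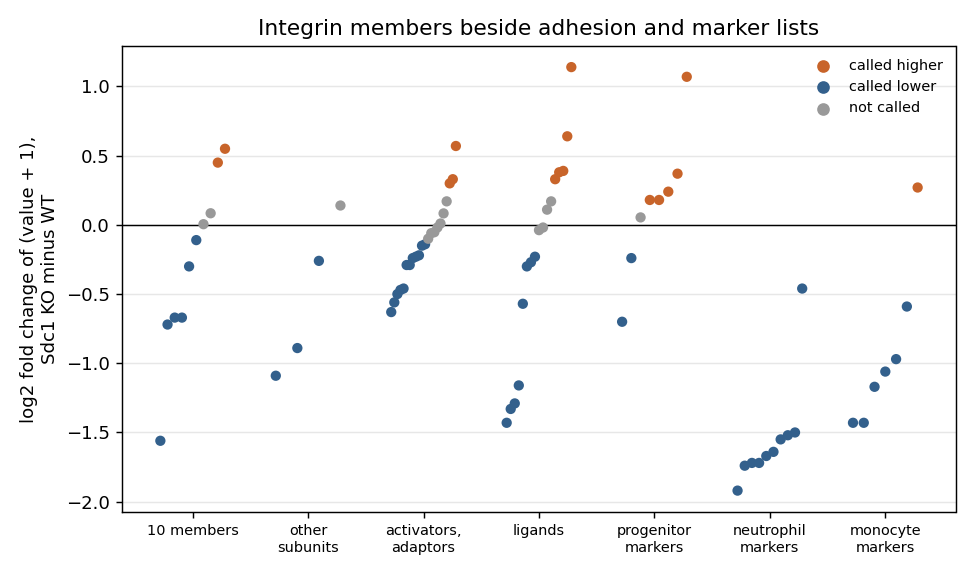
Log2 fold change of value + 1, Sdc1 KO minus WT (vertical axis), for each tested gene of the integrin lists and of 3 marker lists, 1 point per gene, colored by its call. The 10 members spread from -1.56 to 0.55 around a median of -0.20, while all neutrophil markers lie below 0.

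Markers of other cells found in spleen were read as well. The study's gate took cells positive for the markers of both oncogene vectors and then Lin- cells, and a legend names this RNA-seq among its uses. The purity of the sorted RNA-seq samples was not tested here. Of the T, B and NK cell lists, for lymphocytes, which carry β7 and αL, 1 gene each was tested and none was called. Their sums were at most 2.76, 2.77 and 7.32 in any library, the last almost wholly from Klrb1c. Cd3e was at 0 in the WT-labelled libraries and at most 0.0382 in the others, and Klra8 was at 0 in all libraries. Stroma and endothelium markers summed to between 26.5 and 27.7 in the WT-labelled libraries and between 27.4 and 27.8 in the Sdc1 KO-labelled ones, chiefly from Col1a2. Of the 2 tested, Col1a2 was called higher (log2 fold change 0.29, adjusted p = 3.4e-04, limma) and Pdgfrb lower (-0.68, adjusted p = 5.5e-05). Cxcl12, below the minimum mean and named after its values were seen, went from 0.919 ± 0.117 to 0.128 ± 0.0358 (SD, n = 3, adjusted p = 3.6e-04 with no filter), and Cdh5 and Kdr were below 0.04 in all libraries. Of 6 erythroid markers, 5 were called lower and 1, Klf1, higher (log2 fold change 0.21, adjusted p = 0.0095), and their sums, chiefly from Hba-a1 and Hbb-bs, were 5125 to 5903 and 2979 to 3246. Over all genes tested, 31.3% were called lower and 29.3% higher.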

How the data were processed

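RNA-seq was measured in Lin- bcCML cells, 3 libraries labelled WT and 3 labelled Sdc1 KO, each from 150 ng of RNA with a stranded mRNA kit and single reads of 75 bases. The authors ran kallisto and sleuth 0.30.0, with mm10 named in the submitters' processing notes, and deposited per gene and library a signal, TPM rescaled between libraries (sums 944973 to 1058263). A second deposited table holds the authors' own comparison (p-values, q-values and effect sizes from sleuth) and was not used. Read depth is unknown, and no counting interval is given. The design assumed TPM, and its test was kept for the rescaled values.

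limma 3.58.1 (R 4.3.3) was run on log2(value + 1) of 12155 genes whose mean over 6 libraries reached 1. The model held the group alone, with a variance trend and Benjamini-Hochberg adjustment at 0.05. Fold changes on this scale understate those of low genes. Ratios of α to β genes were compared on log2(value + 1) by exact two-sided permutation over the libraries, adjusted over 8 pairs and over 4 β subunits. Alternatives were pseudocounts of 0.1 and 0.5, no filter, a minimum mean of 5, a sum of 1000000 per library, quantile normalization, no variance trend, the replicate number as a block, and leaving out each library. Positions and transcripts were those of GENCODE M21, and 35454 of 36083 identifiers matched a symbol. Figures were drawn with matplotlib 3.10.9, and tables were made with pandas 2.3.3 in Python 3.11.15.

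The integrin genes, the other lists and the markers were chosen with earlier results of these data known. Named were all 10 integrin genes, Sdc1 and other subunits that pair with one of them at a mean of at least 1. For activators and adaptors, ligands and neutrophil markers, the called genes with the largest changes and the gene with the highest mean were named. Genes of the other marker lists, among them Cd3e, Klra8, Cdh5 and Kdr, were not all named by that rule. Elsewhere, genes outside the rule are named as such.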

Additional observations from a re-analysis of the deposited data

How the results depend on the processing

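Calls for Itga5, Itga6, Itgam, Itgb2, Itgb3 and Itgb7 kept their direction and stayed past the threshold under all 14 alternatives run. The log2 fold change of Itgam ranged from -1.68 to -1.43, and that of Itgb7 from -0.76 to -0.57. Calls for Itgb1 and Itgav did not. With a sum of 1000000 per library, which moved the median of all genes to 0.12, Itgb1 stood at 0.042 (adjusted p = 0.31, limma), and 4 integrin genes were called higher, among them Itga4 (0.23, adjusted p = 0.012) and Itgal (0.15, adjusted p = 0.0099). Under that scaling 6 activators and adaptors were called lower and 7 higher, and 5 ligands were called lower. Over all 12150 genes in that fit, 2367 were called lower and 5290 higher. With quantile normalization 5 activators and adaptors were called higher, beside 3768 of all 12155 genes tested. In that fit Itgb1 stood at -0.0056 (adjusted p = 0.89, limma) and Itgal at -0.0054. With no filter on low values 5 of the other subunits were called lower and 1 higher, beside 4091 lower and 3931 higher of all 24714 genes in that fit. Without each library in turn, 4 to 5 integrin genes were lower and 2 to 3 higher, and Itgal ranged from -0.012 to 0.032. Over all genes in those fits, 3380 to 3608 were called lower and 3083 to 3353 higher. The cause of these differences was not tested. All pair and partner sum ratios kept their direction under their alternatives, that of Itgav/Itgb1 from -0.26 to -0.07. Sdc1 was higher under 13 alternatives, and a minimum mean of 5 leaves it out.

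Libraries with the same number need not be paired: their deviations from the group means correlated at 0.15, -0.0083 and 0.018, and 2 of 3 libraries labelled WT correlated best with their own number. With the replicate block 3971 genes were called lower and 3653 higher, 5 integrin genes lower (Itgav had an adjusted p of 0.073) and 2 higher. The block version of the Itga4/Itgb7 ratio, an exact sign-flip permutation over 3 pairs, gave a change of 0.80 with p = 0.25, the smallest it allows.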

Other observations

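Integrin subunits below the minimum mean were left out of the counts above, 13 of the 17 outside the main list. Their levels were low in all libraries, and the genes named here were chosen after their values were seen. Itga10, a collagen receptor chain that pairs with β1, stood at 0.124, 0.0449 and 0.0292 in the libraries labelled WT and at 0.352, 0.426 and 0.397 in those labelled Sdc1 KO. With no filter on low values it was called higher (log2 fold change 0.39, adjusted p = 0.0014, limma). Itga1, another collagen receptor chain, went from 0.0958 ± 0.0142 to 0.00535 ± 0.00471 (SD, n = 3) and was called lower in that fit (log2 fold change -0.12, adjusted p = 0.0015). Itgae, the αE partner of β7, went from 0.474 ± 0.0737 to 0.276 ± 0.0632 (SD, n = 3, log2 fold change -0.21, adjusted p = 0.036). Itgax, the αX partner of β2 found on dendritic and myeloid cells, stood at 0.49, 0.891 and 0.505 and then at 0.122, 0.166 and 0.456 (log2 fold change -0.38, adjusted p = 0.096). At these levels, with read depth unknown, the number of reads behind a value cannot be given.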
